A study of Mus musculus with 4 samples.

Results

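The genes described here are 33 genes of mitosis and of the G2/M step of the cell cycle, chosen by name from a deposited table of mouse RNA values that held 29871 distinct symbols. All 33 were found in the table. The study sequenced total RNA of small-intestinal adenomas in 4 libraries. The 2 control libraries came from mice of genotype APC Min/+, which carry 1 truncated copy of the tumour suppressor Apc, and the 2 others from mice of genotype PAF KO; APC Min/+. All 4 libraries thus share the Min allele and the adenoma as tissue. The labels do not give the age or sex of the mice, how many adenomas went into a library, whether libraries came from separate animals, or in which cells PAF was removed. P-values therefore measure only the spread between these samples, which may be technical for the controls. Symbols are written in capitals, as in the table.

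PAF was read as Pclaf, whose product binds the replication clamp PCNA and whose row in the table is 2810417H13Rik. This row was the check of the labels. It stood at 17.9 and 17.8 FPKM in the controls, 4.13 FPKM in knockout library 1 and 11.4 FPKM in knockout library 2. FPKM are fragments per kilobase of transcript, scaled to the mapped fragments of the library. PAF was thus at 23.2% and 63.9% of the control mean, and the difference did not pass the threshold (log2 fold change -1.24, SE 0.484, n = 2 per group; limma adjusted p = 0.398). Beside its higher PAF level, knockout library 2 stood apart in several ways that touch what follows. It held XIST, a transcript of female cells, at 46.4 FPKM and the Y-linked EIF2S3Y at 0, whereas the other 3 libraries held at most 0.00861 FPKM of XIST and at least 25.98 FPKM of EIF2S3Y. By these transcripts knockout library 2 was female and knockout library 1 male, so they were not repeats of 1 animal. Sex cannot be told apart from the other differences of knockout library 2. The values of that library also ran with the GC content of transcripts, and its markers of stroma and of absorptive cells differed from the other libraries, as set out with the results. Epithelial markers summed to 9179 and 9074 FPKM in the controls, against 10912 and 10903 FPKM in the knockouts. Of these 12 markers 4 were above the controls in both knockouts and 2 below, beside 21.5% and 30.2% of all tested rows. CDH1, among those below, read 334 and 325 FPKM against 283 and 289 FPKM.

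A dividing cell enters mitosis when CDK1, bound to cyclin A or B, becomes active. Kinases of the Plk, Aurora and Nek families then build the spindle, the spindle checkpoint holds cells until every chromosome is attached, and the anaphase-promoting complex (APC/C) with CDC20 destroys cyclin B and securin so that chromatids part. Most of these genes are transcribed late in the cycle, and their RNAs are used as a measure of how many cells in a tissue are cycling. In the intestine this activity belongs to crypt cells, and in Apc-mutant adenomas the dividing cells spread through the lesion. In bulk RNA, more dividing cells and more RNA per dividing cell cannot be told apart.

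Late cell cycle promoters are known for the CHR (cell cycle genes homology region), bound by the MuvB core of the DREAM and B-Myb complexes, and for CCAAT boxes bound by NF-Y. RefSeq promoter windows on GRCm38.p6, from 250 bases before to 50 bases after a transcript start, were found for 28 of the 33 genes, in 30 windows. The CHR was searched as TTTGAA or TTCGAA, and NF-Y boxes as CCAAT, on both strands. CHR letters stood in 24 of the 30 windows (80.0%), against 19.2% of all 32851 windows and 17.6% of the windows of protein-coding genes. At least 2 CCAAT boxes stood in 16 windows (53.3%), against 11.7% of all windows. Both kinds stood together in 22 windows (73.3%), against 7.52% of all windows. The E2F letters TTTCCCGC or TTTGGCGC, used by many genes of the earlier G1/S step, stood in 0 of the 30 windows and in 1.56% of all windows. With so low a share over all windows, 30 windows cannot show whether these genes hold fewer such letters. The 250 bases before the start are printed for 3 genes with several such letters and for BIRC5, which has neither. BIRC5 had the largest log2 fold change in the deposited values on the log2(FPKM + 1) scale. Its ratio of group means, 1.94, was below those of CENPE (2.15), CCNB1 (2.05) and CENPA (1.98). Capitals mark CHR and CCAAT letters on either strand (ATTGG and TTCAAA are their reverse strand forms).
CCNB2, chr9:70421555-70421804, minus strand: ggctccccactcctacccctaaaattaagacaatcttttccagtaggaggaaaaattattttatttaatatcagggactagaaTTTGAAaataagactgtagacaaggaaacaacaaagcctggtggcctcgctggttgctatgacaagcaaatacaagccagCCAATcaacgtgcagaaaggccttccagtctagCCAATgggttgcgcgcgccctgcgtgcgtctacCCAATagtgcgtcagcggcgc
TOP2A, chr11:99024190-99024439, minus strand: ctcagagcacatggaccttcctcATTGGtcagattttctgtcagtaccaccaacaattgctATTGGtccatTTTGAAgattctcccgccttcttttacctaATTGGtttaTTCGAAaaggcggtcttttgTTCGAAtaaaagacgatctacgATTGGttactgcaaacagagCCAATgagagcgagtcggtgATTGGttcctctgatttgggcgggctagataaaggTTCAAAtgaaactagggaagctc
UBE2C, chr2:164769679-164769928, plus strand: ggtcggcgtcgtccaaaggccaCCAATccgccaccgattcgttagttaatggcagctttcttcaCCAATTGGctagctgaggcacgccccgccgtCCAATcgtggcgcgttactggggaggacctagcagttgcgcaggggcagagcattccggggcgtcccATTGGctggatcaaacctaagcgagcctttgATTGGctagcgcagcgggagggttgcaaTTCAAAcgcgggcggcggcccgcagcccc
BIRC5, chr11:117848987-117849236, plus strand: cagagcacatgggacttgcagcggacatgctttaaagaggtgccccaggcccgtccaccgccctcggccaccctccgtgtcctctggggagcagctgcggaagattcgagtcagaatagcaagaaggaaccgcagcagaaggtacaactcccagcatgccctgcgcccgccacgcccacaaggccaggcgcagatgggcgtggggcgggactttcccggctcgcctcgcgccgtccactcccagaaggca

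In CCNB2 the 3 CCAAT boxes began 87, 54 and 21 bases before the start. TOP2A held 6 CCAAT boxes and 4 CHR matches in the printed bases, and UBE2C held 6 CCAAT boxes, of which 2 overlap on opposite strands. The 22 genes with CHR letters in a window had a median log2 fold change of 0.40 (range -0.12 to 0.92 over all 28 genes with a window), and the 6 without, CCNB1, NEK2, MAD2L1, CENPE, BIRC5 and NUSAP1, had a median of 0.77; the difference was not tested. A match is a description of letters and not a measured binding site.

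Testing required a mean of 1 FPKM or more. All 33 genes met it, and the lowest mean was 4.92 FPKM. Differences were tested with limma on log2(FPKM + 1) across 13716 rows, with p-values adjusted over all of them and a threshold of 0.05. No gene of the 33 passed (0 of 33; limma adjusted p from 0.309 to 0.924), where 0.0729% of all tested rows passed, all of them lower in the knockouts. At an unadjusted p under 0.05, 2 of the 33 were higher (PRC1 and BIRC5) and 0 lower, beside 3.44% of all tested rows that were higher and 9.76% lower. In 24 of the 33 genes both knockout libraries lay above both controls, against 21.5% of all tested rows. In 0 of the 33 did both lie below, against 30.2% of all tested rows. The remaining 9 overlapped. With each library centred on its median, the counts were 28 above and 0 below, against 30.2% and 25.6% of all tested rows. The median log2 fold change was 0.44 over the 33 genes and 0.0035 over all tested rows, with 32 of the 33 values above 0, against 50.3% of all tested rows.

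**Figure D1:**
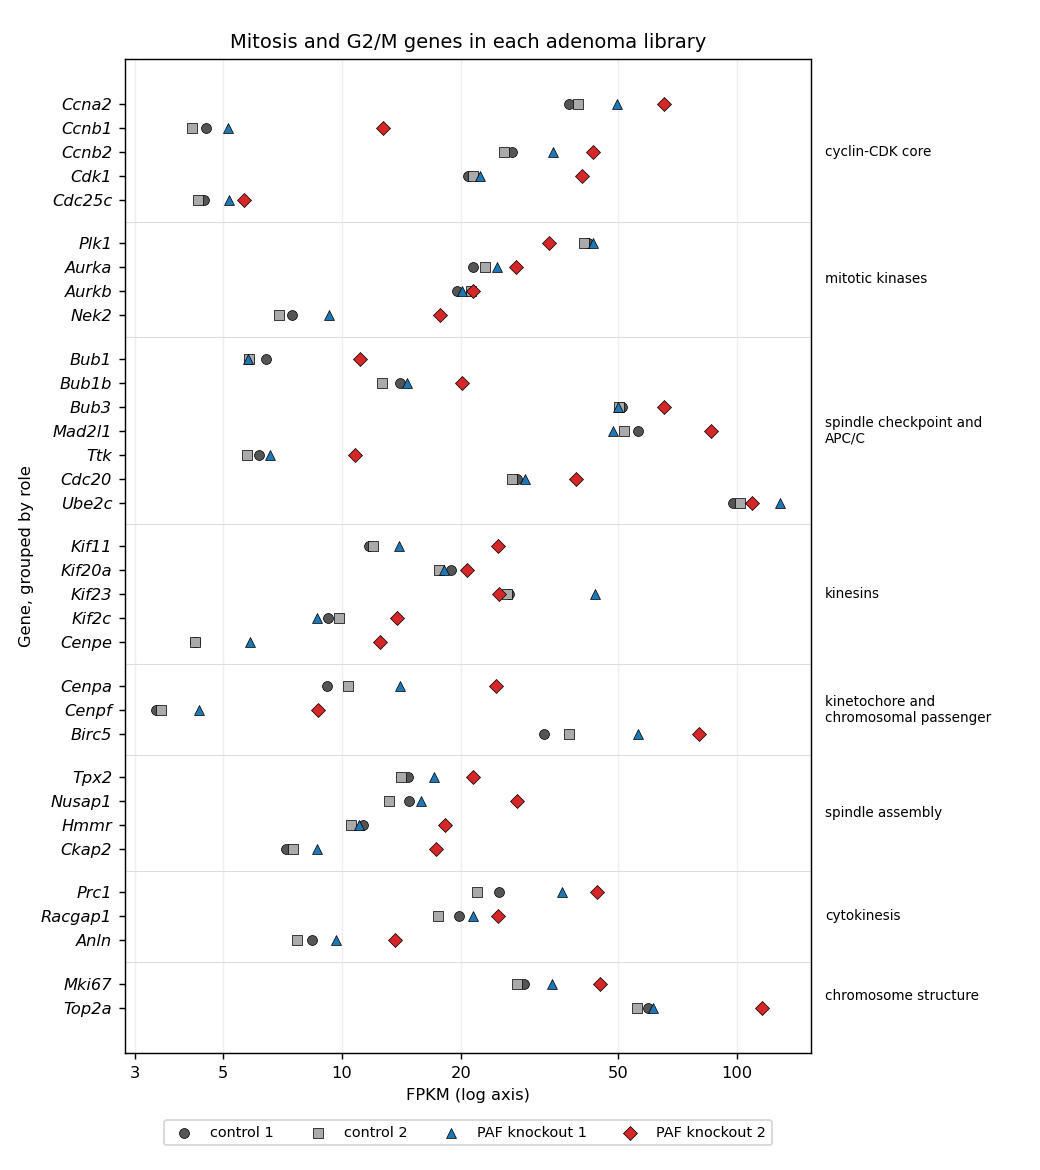
FPKM of each of the 33 genes in the 4 libraries, on a log axis, with genes grouped by role and 1 symbol per library. The 2 controls lie close together for every gene, knockout library 1 lies a little higher for most, and knockout library 2 is the highest for most, with PLK1 and KIF23 the genes where it is the lowest.

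The controls differed little from each other, by a median of 1.07-fold over the 33 genes and by at most 1.16-fold (BIRC5). The knockout libraries differed more. Knockout library 2 was at a median of 1.67-fold the control mean, with 21 genes past 1.5-fold, and knockout library 1 at a median of 1.18-fold, with 3 genes past 1.5-fold. Rows past 1.5-fold were not counted over all tested rows. The median log2 difference from the control mean was 0.69 in library 2 and 0.20 in library 1 over the 33 genes. Over all tested rows it was 0.087 and -0.11. Library 1 lay above both controls for 26 of the 33 genes, against 31.2% of all tested rows, and below both for 4, against 56.2%. Library 2 lay above both for 31 of 33, against 51.3%, and below both for 2, against 41.7%. Library 2 was above library 1 for 30 of the 33 genes, against 61.8% of all tested rows. Summed over the 33 genes, the level was 749.5 and 740.1 FPKM in the controls, 877 FPKM in knockout library 1 and 1148 FPKM in knockout library 2. The sum over all symbols was highest in library 2 as well, at 609635 FPKM. It was 528147 and 533824 FPKM in the controls and 543952 FPKM in library 1.

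The counts by role given from here on stand beside 21.5% of all tested rows with both knockouts above both controls. The cyclin-CDK core lay higher in both knockouts for all 5 genes, with a median log2 fold change of 0.53. CCNA2, the cyclin of S phase and early mitosis, read 37.5 and 39.6 FPKM in the controls, against 49.7 and 65.3 FPKM in the knockouts. CCNB2, a B-type cyclin, read 27.0 and 25.8 FPKM against 34.2 and 43.3 FPKM. For both cyclins the 2 groups did not overlap, at 1.29- and 1.69-fold the control mean for CCNA2 and 1.30- and 1.64-fold for CCNB2. Neither difference passed the threshold (log2 fold changes 0.55, SE 0.207, and 0.53, SE 0.192; limma adjusted p = 0.389 and 0.386).

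CCNB1, the main mitotic cyclin, read 4.53 and 4.17 FPKM in the controls, 5.14 FPKM in knockout library 1 and 12.7 FPKM in knockout library 2. Its log2 fold change of 0.78 (SE 0.450; limma adjusted p = 0.499) came mostly from library 2, at 2.93-fold the control mean against 1.18-fold. CCNB1 has a named pseudogene (Ccnb1-ps), as have CCNB2 and AURKB, so its low level beside CCNB2 is uncertain. CDK1, their catalytic partner, showed the same split, at 20.9 and 21.5 FPKM against 22.4 and 40.5 FPKM. CDC25C, a phosphatase that activates CDK1, read 4.48 and 4.34 FPKM against 5.18 and 5.67 FPKM, the smallest difference of the 5 (log2 fold change 0.25).

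The mitotic kinases were the group with the smallest median, 0.13, and they split. PLK1, a kinase of mitotic entry and spindle poles, read 41.9 and 41.1 FPKM in the controls, 43.2 FPKM in knockout library 1 and 33.5 FPKM in knockout library 2. It was the sole gene of the 33 with a negative log2 fold change (-0.12, SE 0.197; limma adjusted p = 0.762), and the value was 0.056 without knockout library 2. AURKB, the kinase of the chromosomal passenger complex, read 19.5 and 21.2 FPKM against 20.1 and 21.5 FPKM, so the groups overlapped almost fully. AURKA, the kinase of spindle poles, read 21.4 and 23.1 FPKM against 24.7 and 27.6 FPKM. NEK2, a centrosome kinase, stood out from the other kinases with 7.49 and 6.95 FPKM against 9.28 and 17.8 FPKM (log2 fold change 0.76, SE 0.350; limma adjusted p = 0.443). A second, low row for NEK2, at 0 FPKM in the controls and at most 1.20 FPKM in the knockouts, was not used.

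Among 7 genes of the spindle checkpoint and the APC/C, 4 lay above the controls in both knockouts and 3 (BUB1, BUB3 and MAD2L1) did not. UBE2C, the ubiquitin-conjugating enzyme of the APC/C, had the highest control level of the 33 genes, at 97.9 and 102 FPKM, and read 129 and 109 FPKM in the knockouts. It was 1 of only 3 genes, with KIF23 and PLK1, that were lower in library 2 than in library 1. CDC20, the activator of the APC/C in mitosis, read 27.7 and 26.9 FPKM against 29.1 and 39.2 FPKM.

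The checkpoint genes proper lay close to the controls in knockout library 1 and above them in library 2. MAD2L1, which holds CDC20 inactive at unattached kinetochores, read 56.2 and 51.7 FPKM in the controls, 48.6 FPKM in library 1 and 85.9 FPKM in library 2. BUB1, a checkpoint kinase, read 6.43 and 5.81 FPKM against 5.78 and 11.1 FPKM, and its partner BUB3 read 51.1 and 50.2 FPKM against 49.9 and 65.4 FPKM. For these 3 genes the sign of the log2 fold change turned when library 2 was left out (-0.15 for MAD2L1, -0.069 for BUB1 and -0.022 for BUB3). BUB1B, which binds CDC20 beside BUB3, read 14.1 and 12.7 FPKM against 14.6 and 20.1 FPKM. TTK, the kinase that starts the checkpoint signal, read 6.18 and 5.74 FPKM against 6.57 and 10.8 FPKM.

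The 5 kinesins, motors that move along microtubules, went in different directions by library. CENPE, the kinetochore motor that brings chromosomes to the spindle equator, read 4.26 FPKM in each control, 5.84 FPKM in library 1 and 12.5 FPKM in library 2 (log2 fold change 0.87, SE 0.388; limma adjusted p = 0.434). KIF11, which pushes spindle poles apart, read 11.7 and 11.99 FPKM against 14.0 and 24.8 FPKM. These were the 2 kinesins with both knockouts above both controls.

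KIF23, a motor of the central spindle, had the reverse pattern, with 26.4 and 26.3 FPKM in the controls, 43.8 FPKM in library 1 and 24.9 FPKM in library 2. Its log2 fold change of 0.32 (SE 0.321; limma adjusted p = 0.646) was -0.077 without library 1. KIF20A, another motor of the central spindle, read 18.9 and 17.6 FPKM against 18.1 and 20.8 FPKM. KIF2C, which takes microtubule ends apart at centromeres, read 9.22 and 9.85 FPKM against 8.66 and 13.8 FPKM. Without library 2 the log2 fold change was -0.0086 for KIF20A and -0.12 for KIF2C.

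The group of CENPA, CENPF and BIRC5 had the highest median log2 fold change of the 8 groups, 0.87. Both knockouts lay above both controls for each. Of the passenger complex this group held BIRC5 alone. AURKB, counted with the kinases, had a log2 fold change of 0.032. INCENP and CDCA8, passenger genes of the further kinetochore list, had -0.10 and 0.17. INCENP read 24.4 and 24.0 FPKM against 23.6 and 21.3 FPKM, with both knockouts below both controls. The rank is thus that of the group and not of the passenger complex. BIRC5 (survivin), a subunit of the passenger complex that is also an inhibitor of apoptosis, read 35.0 ± 3.64 FPKM in the controls, against 68.1 ± 16.7 FPKM in the knockouts (SD, n = 2 each). Its knockout values of 56.3 and 79.9 FPKM were both above the controls, at 32.4 and 37.6 FPKM. The log2 fold change of 0.92 (SE 0.247) had an unadjusted p of 0.022 and a limma adjusted p of 0.318. CENPA, the histone H3 variant that marks centromeres, read 9.16 and 10.4 FPKM against 14.0 and 24.5 FPKM (log2 fold change 0.87, SE 0.319; limma adjusted p = 0.388). CENPF, a large kinetochore protein and the lowest of the 33 in the controls, read 3.39 and 3.48 FPKM against 4.34 and 8.69 FPKM.

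In the spindle assembly group, 3 of 4 genes were above the controls in both knockouts. TPX2, which activates Aurora A and seeds microtubules near chromosomes, read 14.7 and 14.1 FPKM against 17.1 and 21.5 FPKM. NUSAP1, which bundles spindle microtubules, read 14.8 and 13.2 FPKM against 15.9 and 27.8 FPKM, and CKAP2, a microtubule protein of spindle poles, read 7.21 and 7.505 FPKM against 8.67 and 17.3 FPKM. HMMR, a spindle protein first known as a hyaluronan receptor, overlapped, with 11.3 and 10.6 FPKM against 11.1 and 18.3 FPKM.

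All 3 cytokinesis genes were above the controls in both knockouts, with a median log2 fold change of 0.47. PRC1, which bundles the central spindle, had the smallest p of the 33 genes. It read 24.9 and 22.0 FPKM in the controls, against 36.1 and 44.2 FPKM in the knockouts (log2 difference 0.74, SE 0.190; unadjusted p = 0.019, limma adjusted p = 0.309). PRC1, BIRC5 and KIF23 were the 3 genes past 1.5-fold in library 1. ANLN, a scaffold of the contractile ring, read 8.39 and 7.71 FPKM against 9.65 and 13.6 FPKM, and RACGAP1, which works with KIF23 at the central spindle, read 19.8 and 17.5 FPKM against 21.5 and 24.8 FPKM.

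The 2 genes of mitotic chromosome structure are also the usual tissue markers of proliferation. MKI67, which coats mitotic chromosomes, read 28.9 and 27.8 FPKM in the controls, against 34.1 and 45.1 FPKM in the knockouts, at 1.20- and 1.59-fold the control mean. TOP2A, the topoisomerase that untangles chromosomes, read 59.6 and 55.7 FPKM against 61.2 and 115 FPKM. It was at 1.06-fold the control mean in library 1 and at 2.001-fold in library 2, and there it had the highest level of the 33 genes.

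The distance between the knockout libraries ran with the base composition of the transcripts. GC content was taken from the longest GENCODE transcript of each gene, and ranged from 40.1% (MAD2L1) to 56.0% (PLK1) over the 33 genes, with a median of 46.3% against 50% over all tested rows. Over the 33 genes, the log2 difference of library 2 from the control mean had a Pearson correlation of -0.54 with GC content (Spearman -0.49), and that of library 1 a correlation of 0.0003. These are descriptions across genes, which share their libraries. Over 12926 tested rows with a GC value the correlations were -0.39 for library 2 and -0.057 for library 1. In the 11 genes under 44% GC the median difference in library 2 was 0.94, and 0.61 over the 1852 rows from 40% to 44%. In the 11 genes of 48% or more it was 0.49, and -0.089 over 6050 rows of that range. From 44% to 48% it was 0.65, and 0.35 over 2556 rows. In each range the genes lay above the rows of like GC content, by a smaller margin than above the controls in the lower and middle ranges and by a larger one in the highest.

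**Figure D2:**
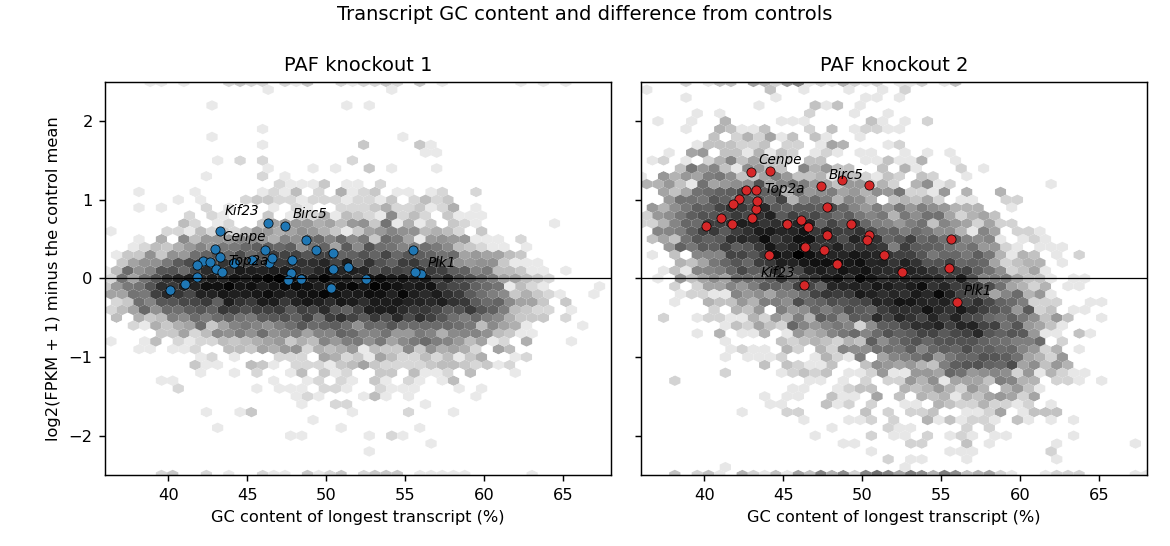
Difference of each knockout library from the control mean, on the log2(FPKM + 1) scale, against transcript GC content. Grey hexagons are tested rows between 36% and 68% GC (darker for more rows, log scale, with differences beyond 2.5 drawn at the edge) and coloured points are the 33 genes; the cloud slopes downward in knockout library 2 (r = -0.39) and is nearly level in library 1 (r = -0.057).

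A loess trend on GC content and transcript length was therefore removed from each library, a step chosen after seeing the data, and the 33 genes were looked at again. The libraries came closer together, which a step that takes a trend out of each library in part brings about by itself. The median difference from the controls became 0.24 in library 1 and 0.39 in library 2, from 0.20 and 0.69 before. The median absolute difference between the knockouts went from 0.50 to 0.17 over the 33 genes, and from 0.49 to 0.34 over all tested rows. Both knockouts lay above both controls for 26 of the 33 genes and below for 0, against 28.8% and 25.7% of 12926 rows. Library 1 lay above both controls for 30 genes, against 44% of rows, and library 2 for 29, against 49.1%. No gene passed (0 of 33; lowest limma adjusted p = 0.208).

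With the trend removed, MKI67 lay 0.53 and 0.59 above the control mean in the 2 knockouts on the log2 scale, BIRC5 0.76 and 0.91, CCNA2 0.42 and 0.36, CCNB2 0.34 and 0.42, and ANLN 0.35 and 0.36. The 2 libraries were thus close for these genes. They stayed apart for, among others, CCNB1 (0.23 and 0.81), CDK1 (0.20 and 0.75), TOP2A (0.20 and 0.57), NEK2 (0.44 and 1.17) and CENPA (0.60 and 1.13). For CDC20 they lay further apart than before, at 0.16 and 0.72, from 0.087 and 0.50. The median absolute difference between the knockouts was 0.47 in the cyclin-CDK core, from 0.39 before. The group of CENPA, CENPF and BIRC5 kept the highest median of the 8 groups, at 0.83. The checkpoint and APC/C group had a median of 0.17, and 6 of its 7 genes were above the controls in both knockouts. PLK1, at 0.18 and 0.0050, turned positive (log2 fold change 0.095). CDC25C turned to -0.0078, with 0.23 in library 1 and -0.24 in library 2, from 0.19 and 0.30 before. KIF23 was split more widely, at 0.79 in library 1 and -0.42 in library 2, from 0.71 and -0.077 before.

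**Figure D3:**
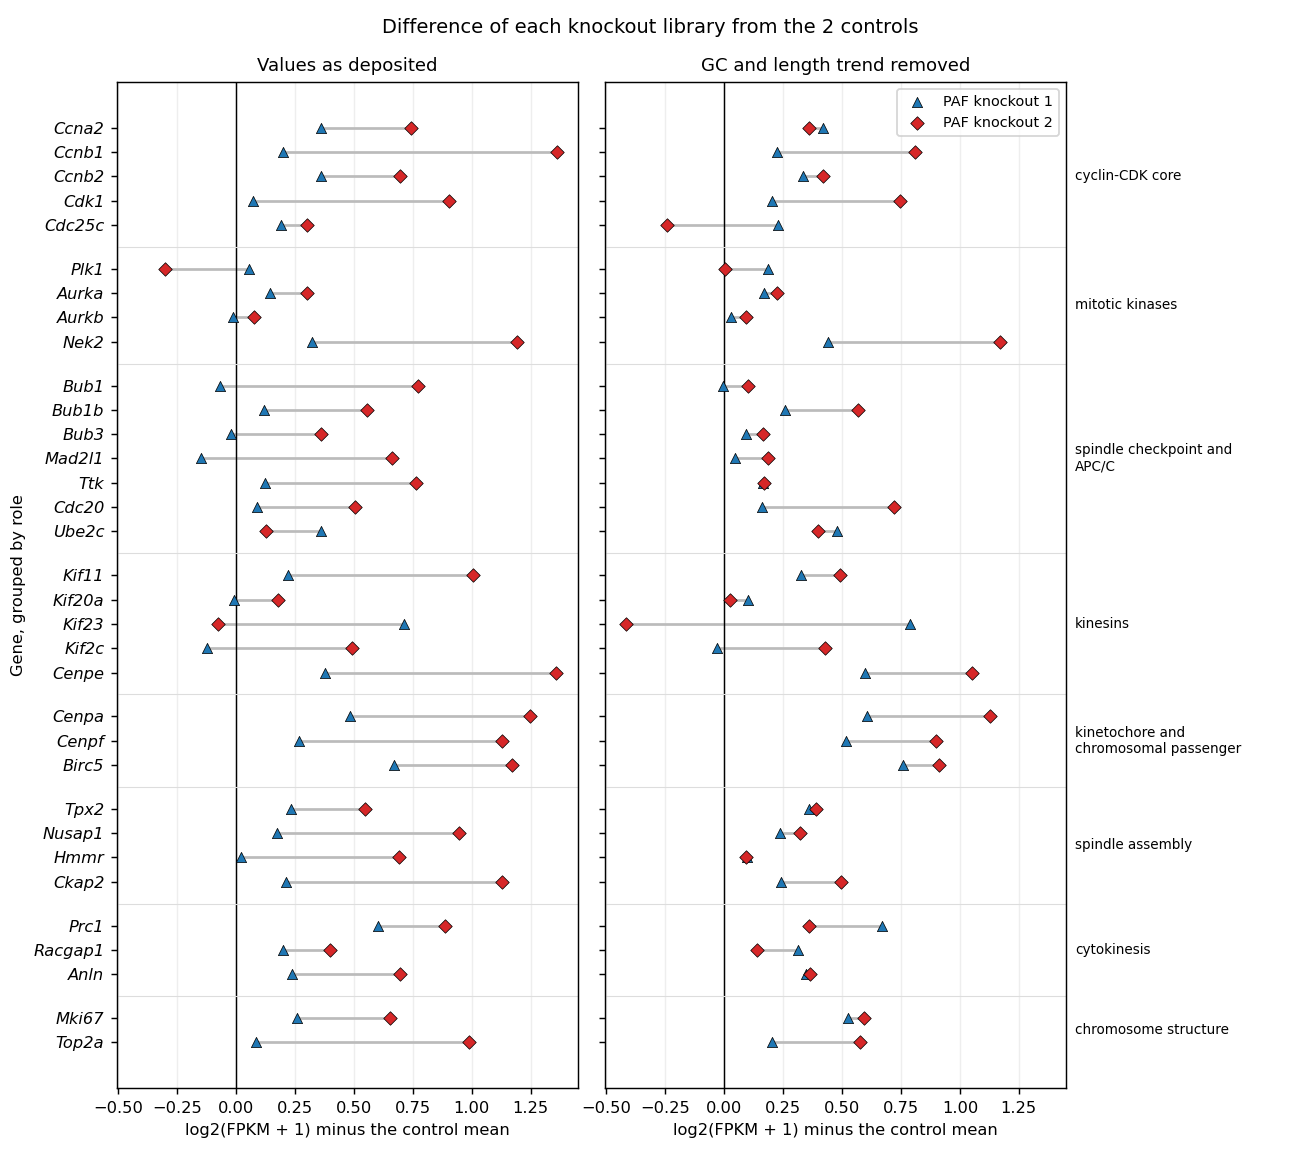
Difference of each knockout library from the mean of the 2 controls on the log2(FPKM + 1) scale, per gene and by role, with a grey line joining the 2 libraries. On the left are the deposited values, on the right the values after removal of the GC and length trend, where the lines are shorter for most genes (median 0.17 against 0.50) and most points stay to the right of 0.

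Other genes of mitosis, from lists of 144 genes of which 141 were tested, were counted in the same way. Both knockouts were above both controls for 14 of 36 kinetochore and centromere genes, 8 of 21 condensin and cohesin genes and 15 of 32 further kinesin and spindle genes, and below for 2, 2 and 4, beside 21.5% of all tested rows above and 30.2% below. The counts were 2 above and 3 below for 15 tested genes of the G2/M switch, 2 and 3 for 17 transcription factors of G2/M genes, and 2 and 6 for 20 APC/C subunits and regulators. None of the 141 passed the test (0 by limma over all rows, 4 at an unadjusted p under 0.05, 2 in each direction, beside 3.44% of all tested rows higher and 9.76% lower).

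Median log2 fold changes were 0.38 for kinetochore and centromere genes, 0.27 for condensin and cohesin and 0.35 for kinesins and spindle. In library 1 these lists had medians of 0.05, -0.03 and -0.02, beside 0.20 for the 33 genes. In library 2 they had 0.73, 0.68 and 0.54, beside 0.69 for the 33 genes. The median log2 fold changes were -0.04 for the switch, -0.0067 for the transcription factors and -0.02 for the APC/C list. DNA replication genes, the most similar group, had a median of 0.23 over 46 genes, with -0.04 in library 1 and 0.50 in library 2, and both knockouts were above both controls for 13 and below for 7, beside 21.5% and 30.2% of all tested rows. After removal of the GC and length trend the replication median was 0.25, with 0.086 and 0.36 in the 2 libraries, and 19 genes were above and 5 below, beside 28.8% and 25.7% of rows. After the same step the medians were 0.24 for kinetochore and centromere genes, 0.15 for condensin and cohesin and 0.29 for kinesins and spindle. In library 1 they were 0.17, 0.11 and 0.14, and in library 2 0.26, 0.20 and 0.40. Both knockouts were above both controls for 19, 11 and 21 of these genes and below for 2, 1 and 3. For the switch, the transcription factors and the APC/C list the medians were 0.0064, -0.0039 and -0.073. There 2, 1 and 5 genes were above and 5, 1 and 6 below. The difference between these lists and the 33 genes was not tested.

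**Figure D4:**
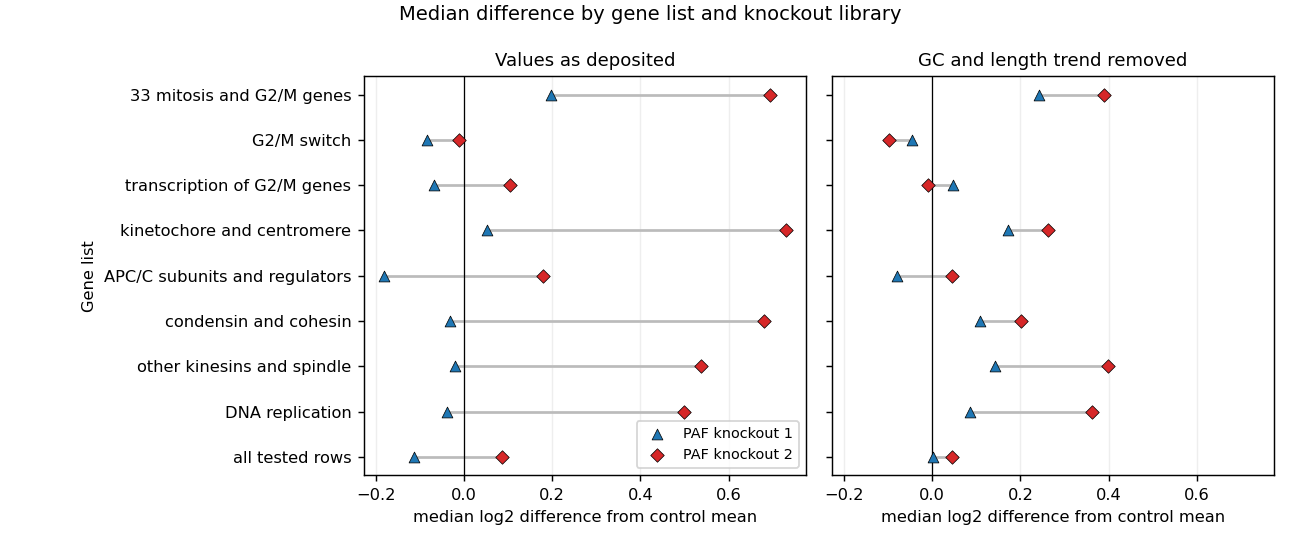
Median log2 difference from the control mean in each knockout library, for the 33 genes, 6 further lists of mitotic genes, DNA replication genes and all tested rows. In the deposited values (left) the 33 genes have the highest median in library 1, at 0.20. In library 2 the kinetochore and centromere genes have a higher median, at 0.73 against 0.69. After removal of the GC and length trend (right) the medians of the 33 genes are 0.24 and 0.39 and those of all tested rows 0.0012 and 0.04. The further kinesin and spindle genes then have 0.14 and 0.40.

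The factors that drive G2/M transcription had values on both sides of 0. FOXM1, a forkhead activator of these genes, read 11.6 and 11.2 FPKM in the controls, against 10.9 and 7.37 FPKM in the knockouts (log2 difference -0.32, SE 0.237; limma adjusted p = 0.565). MYBL2, which encodes B-Myb, read 5.18 and 5.34 FPKM against 4.97 and 4.98 FPKM (log2 fold change -0.066), and its value was 0.29 after removal of the GC and length trend. LIN54, the MuvB subunit that binds the CHR, read 7.52 and 6.70 FPKM against 7.70 and 9.36 FPKM. LIN37, another MuvB subunit, read 13.4 and 18.4 FPKM against 13.3 and 10.7 FPKM, and NFYC, a subunit of NF-Y, 8.51 and 7.72 FPKM against 10.4 and 8.79 FPKM.

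FZR1, which activates the APC/C after mitosis and in G1, was the gene of smallest p among APC/C regulators and lay lower, at 38.2 and 31.1 FPKM against 21.2 and 24.1 FPKM (log2 fold change -0.59, SE 0.192; limma adjusted p = 0.355). Its inhibitor FBXO5 (Emi1) read 6.27 and 4.79 FPKM against 6.41 and 17.7 FPKM. The APC/C subunit ANAPC16 read 52.2 and 51.4 FPKM against 42.1 and 39.1 FPKM, and MAD2L1BP, which helps to take the checkpoint complex apart, 14.1 and 16.3 FPKM against 20.1 and 18.1 FPKM. In the G2/M switch list, WEE1, the kinase that holds CDK1 inactive, read 9.31 and 8.35 FPKM against 5.96 and 8.57 FPKM, and PPP2R1A, the scaffold of the phosphatase PP2A, 127 and 129 FPKM against 102 and 94.1 FPKM. BORA, an activator of PLK1, had a log2 fold change of 0.19, and CKS2, a Cdk-binding subunit, one of 0.45 that was -0.24 without library 2.

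Among structural genes, KIF4, an X-linked kinesin of chromosome arms, read 6.40 and 6.03 FPKM against 9.14 and 14.0 FPKM (log2 fold change 0.77, SE 0.255; limma adjusted p = 0.359), and NCAPG, of condensin I, 7.11 and 6.97 FPKM against 9.32 and 19.4 FPKM. The checkpoint protein ZWILCH read 5.71 and 4.94 FPKM against 7.34 and 9.60 FPKM, and CENPU (MLF1IP in the table) 3.14 and 2.74 FPKM against 4.17 and 5.36 FPKM. CEP192, a centrosome scaffold, read 6.54 and 6.97 FPKM against 9.92 and 9.82 FPKM, nearly the same in both knockouts. SMC1A of cohesin, an X-linked gene, read 25.1 and 25.3 FPKM against 29.4 and 54.9 FPKM (log2 fold change 0.66, and 0.22 without library 2). Genes of the spindle pole that lay lower were NUMA1, at 41.4 and 41.0 FPKM against 28.7 and 29.0 FPKM, and TUBG1 (gamma-tubulin), at 27.2 and 28.3 FPKM against 20.5 and 12.8 FPKM. The further genes of smallest p that lay lower, CENPT, CENPB, NCAPD2 and NCAPD3, had log2 fold changes of -0.39, -0.15, -0.13 and -0.075. For CENPT the groups overlapped (14.7 and 8.26 FPKM against 7.86 and 8.53 FPKM), and its value was -0.011 without control library 1.

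In the replication list, TK1, which makes thymidine monophosphate, read 9.48 and 10.99 FPKM against 17.1 and 22.3 FPKM, and PRIM2, a primase subunit, 8.34 and 8.73 FPKM against 12.5 and 16.2 FPKM. CDT1, which licenses origins in G1, read 18.5 and 17.7 FPKM against 14.3 and 12.4 FPKM, and POLD1, a subunit of DNA polymerase delta, had a log2 fold change of -0.27. PCNA, the clamp to which PAF binds, read 75.6 and 73.5 FPKM against 76.3 and 89.4 FPKM.

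Markers of other cells that an adenoma holds also differed between the libraries. Fibroblast markers summed to 272 and 275 FPKM in the controls, 345 FPKM in library 1 and 698 FPKM in library 2. All 7 of 7 were above the controls in both knockouts, beside 21.5% of all tested rows. Smooth muscle markers summed to 189 to 201 FPKM in the controls and library 1 and to 725 FPKM in library 2. Neutrophil markers summed to 54.9 and 65.3 FPKM against 194 and 145 FPKM, and their sum was thus highest in library 1. Of the 5 that were tested, 4 were above the controls in both knockouts and 1 below, beside 21.5% and 30.2% of all tested rows. LTF was the one below, at 36.5 and 35.1 FPKM against 29.4 and 32.5 FPKM. Leukocyte markers summed to 214 and 254 FPKM against 168 and 299 FPKM, and endothelial markers to 56.7 and 57.2 FPKM against 66.1 and 75.1 FPKM. Of 11 leukocyte markers 1 was above the controls in both knockouts and 3 were below. LAPTM5, among those below, read 38.7 and 40.9 FPKM against 15.6 and 18.0 FPKM. Of 5 endothelial markers 4 were above and 1 below. The latter was CDH5, at 26.3 and 27.6 FPKM against 25.9 and 12.4 FPKM. These counts stand beside 21.5% of all tested rows above and 30.2% below. Absorptive enterocyte markers, which belong to cells that no longer divide, summed to 8007 and 8587 FPKM in the controls, 12271 FPKM in library 1 and 1058 FPKM in library 2. Of these markers 5 of 10 were below the controls in both knockouts, beside 30.2% of all tested rows. The sum in library 1 held FABP1 at 2367 FPKM (49.7 and 50.4 in the controls) and APOA4 at 3251 FPKM (948 and 972), whereas SIS, ANPEP, FABP2, SLC5A1 and MGAM lay below the controls there too. The part of cell composition in the values of the 33 genes was not tested.

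The contrast between the libraries sets the limits of the comparison. With knockout library 1 left out, 25 of the 33 genes were called higher and 1 (PLK1) lower by limma, beside 34.1% and 27.1% of all tested rows, with 1 knockout sample assumed to vary like the controls. With knockout library 2 left out, 4 were called higher (BIRC5, PRC1, KIF23 and UBE2C) and 0 lower, beside 6.27% and 14.4% of all tested rows. Both comparisons share the 2 controls.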

How the data were processed

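The authors deposited 1 table of FPKM values with a column per library. The submitters' processing notes name TopHat2, Cuffdiff and the build mm9; versions and annotation were not given in the sources used here. The table held 29955 rows, of which 84 repeated a symbol; of such rows the one of higher mean was used. The 13716 rows averaging 1 FPKM or more entered limma 3.58.1 (R 4.3.3) as log2(FPKM + 1), with a variance trend and Benjamini-Hochberg adjustment over all of them. FPKM are not counts, so no count test was used, and fold changes on this scale understate changes of low genes. Low values of 1-transcript genes put the depth at about 12.9 and 17.3 M fragments for the controls and 15.3 and 23.4 M for the knockouts. This gives about 150 fragments for the lowest of the 33 genes in control library 1, so their precision is limited mainly by the 2 libraries per group.

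The members and lists were chosen with earlier results of these data known. Genes named beyond the 33 were the PAF row, FOXM1, MYBL2, PCNA and, per list, the 2 genes of smallest p in each direction. INCENP and CDCA8 of the passenger complex and single markers of sex and of cell types were named as well. GC content and length came from the longest transcript in GENCODE M21 and were found for 94.2% of tested rows and all 33 genes; promoters came from RefSeq windows on GRCm38.p6, and protein sequences were not used here. The limma step was tested on simulated data. In the labels, same-numbered libraries share only a number. The correlation between the difference of the controls and that of the knockouts was -0.115 across rows, which cannot show whether libraries were paired. Alternatives were other pseudocounts, filters and scalings, no variance trend, the replicate block, each library left out and, added after seeing the data, removal of the GC and length trend and a crossed block.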

Additional observations from a re-analysis of the deposited data

How the results depend on the processing

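With only 2 libraries per group, which library stands for the knockouts decides the calls. With 1 library left out, the number of called rows lay between 0 and 8397 (10 with all), and that of called genes among the 33 between 0 and 26. The PAF log2 fold change lay between -1.88 and -0.60. The number of the 33 with every remaining knockout value below every remaining control value lay between 0 and 4. For the other mitotic genes such counts above and below lay between 50 and 103 and between 23 and 66 (43 and 20 with all). With fewer libraries the shares of all tested rows rose too. They lay between 25.6% and 51.3% above and between 34.0% and 56.2% below (21.5% and 30.2% with all). The cause was not tested. Log2 fold changes changed sign for PLK1 (-0.30 to 0.056), AURKB (-0.025 to 0.089), BUB1 (-0.069 to 0.77), BUB3 (-0.022 to 0.36), KIF20A (-0.0086 to 0.18), KIF23 (-0.077 to 0.71), KIF2C (-0.12 to 0.49), MAD2L1 (-0.15 to 0.66) and CKS2 (-0.24 to 1.14). Without a filter 4 rows were called, and 0 after removal of the GC and length trend, where signs turned for PLK1 (0.095), CDC25C (-0.0078), CENPB (0.25), MYBL2 (0.29), NCAPD2 (0.15), PCNA (-0.13) and POLD1 (0.27). Median centring and quantile scaling left 9 and 11 of the other mitotic genes below both controls. Centring also moved all tested rows with both knockouts above or below from 21.5% and 30.2% to 30.2% and 25.6%, and the 33 genes to 28 above and 0 below. With the replicate block 13 rows and 0 of the 33 genes were called, and with crossed pairs likewise 13 and 0. Of the 33 genes, between 22 (filter at 5 FPKM, 31 tested) and 28 lay above both controls in both knockouts in the alternatives that kept every library.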
